A study of Mus musculus with 2 samples.

Results

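The extracellular matrix of skeletal muscle was followed here through 41 genes, of 19169 in the deposited table, that encode matrix proteoglycans and glycoproteins. The genes were taken as a fixed list and grouped by role into 8 small leucine-rich proteoglycans, 2 hyalectans, 3 basement membrane components, fibronectin, 6 fibulins, 7 elastic fibre genes, 11 matricellular genes and 3 adaptors. No member served as a marker to name a cell type, and the members were left out of the genes on which the cells were clustered. All 41 were read in both libraries, and 40 of them reached 50 UMIs (unique molecular identifiers, each standing for 1 captured RNA molecule) in FAP-like cells and all 41 in tenocyte-like cells, the 2 fibroblast types described below.

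The data come from single-cell RNA-seq of mouse gastrocnemius muscle on day 14 after an injection of cardiotoxin (CTX), a venom toxin that destroys myofibers and is followed by regeneration. The comparison set 1 library labelled WT (C57BL/6J, 6354 cells, 44758518 UMIs) beside 1 library labelled GSDME-KO (global loss of the pore-forming protein gasdermin E in every cell, 7078 cells, 50930009 UMIs). Both groups consisted of male mice and received CTX, and no uninjured library was analysed here. Each group held 5 mice, whose pooling and age are not given in the sources used here, so that with 1 library per genotype no test between genotypes was possible and intervals cover counting error only. Below, the libraries are called WT-labelled and KO-labelled, because the RNA did not check the label: Gsdme was read at 5.03 CPM (UMIs per 1000000 UMIs of the library or cell group; interval, 4.39 to 5.73) in the WT-labelled and at 4.65 CPM (4.08 to 5.28) in the KO-labelled library, which corresponds on the log2 scale to -0.11 (-0.38 to 0.16).

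Decorin and its relatives bind collagen fibrils and set their spacing, hyalectans bind hyaluronan, and perlecan and the nidogens tie the laminin and collagen IV layers of the basement membrane that wraps each myofiber. Elastin is deposited on fibrillin microfibrils, and fibulins, microfibril-associated proteins and emilins link the 2 components. Matricellular proteins such as periostin, tenascin-C and the thrombospondins carry little load themselves and bind cells and growth factors during repair, when fibro-adipogenic progenitors (FAPs), the resident mesenchymal cells of muscle, are the main matrix producers.

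Cell groups were named from fixed markers and are called FAP-like, tenocyte-like and so on. In FAP-like cells (1894 in the WT-labelled and 2372 in the KO-labelled library), the 8 FAP markers summed to 29190 and 33045 CPM and the 11 tenocyte markers to 577 and 951 CPM. Tenocyte-like cells (419 and 375), the tendon fibroblasts, held 26706 and 24757 CPM of their own markers. They also held more of the FAP markers than FAP-like cells did, at 62234 and 50001 CPM. The summed FAP markers therefore do not set the 2 fibroblast types apart, while the summed tenocyte markers do. Averaged marker by marker, however, the log2 fold of the FAP markers over all other cells was 0.92 to 1.46 in the FAP-like clusters. In the tenocyte-like cluster it was -0.45. Medians of 6868 and 7786 UMIs per FAP-like cell and of 11432 and 11435 UMIs per tenocyte-like cell were read in the WT-labelled and KO-labelled libraries. The clusters without a name held 226 and 223 cells, a cluster led by hemoglobin genes held 294 and 313, and neither was read further. The libraries shared 4 barcodes, and Scrublet marked 101 and 109 cells as doublets (1.59% and 1.54%) after the authors had already removed doublets.

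The set was above all a product of fibroblasts. The 41 genes together made up 4.62% of all UMIs of FAP-like cells in the WT-labelled library and 4.96% in the KO-labelled library, and 6.32% and 5.93% in tenocyte-like cells. In Schwann-like cells the share was 1.61% and 1.22%, in pericyte-like cells 1.05% and 1.35%, in endothelial-like cells 0.909% and 0.959%, and in macrophage-like cells 0.265% and 0.334%. In both fibroblast types the share leaned on Dcn and Sparc. In tenocyte-like cells Dcn was at 17435 and 14043 CPM and Sparc at 28870 and 23024 CPM, so that the share does not stand for the other members. To judge low levels, the same genes were read in lymphocytes (T-like, B-like and NK-like cells together, 154 and 169 cells, median depths of 2681 to 4317 UMIs), which are not known to make this matrix. Dcn was at 591 and 536 CPM there, and in T-like cells 5 cells held 87.3% and 83.3% of its UMIs. A member was counted as above background in a type when its interval lay above that of the lymphocytes in both libraries. By that rule 39 members were above background in FAP-like cells, 36 in tenocyte-like, 26 in Schwann-like, 16 in pericyte-like, 11 in MuSC-like (muscle stem cells), 11 in muscle-like, 10 in pericyte-endothelial-like, 9 in endothelial-like, 4 in macrophage-like, 4 in monocyte-like and 1 in dendritic-like cells. Smoc1, which encodes a calcium-binding matricellular protein, was above background in no type and stayed at 2.57 and 2.69 CPM in FAP-like cells.

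Across the 13 types with at least 90 cells in both libraries together, the type with the highest level was the same in both libraries for 37 members: tenocyte-like for 18, FAP-like for 15, Schwann-like for 2, and monocyte-like and endothelial-like for 1 each. For 33 members the interval of the leading type was clear of that of the second type in both libraries. The 4 members whose leader switched between libraries were Aspn, Hspg2, Smoc1 and Spon1.

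**Figure D1:**
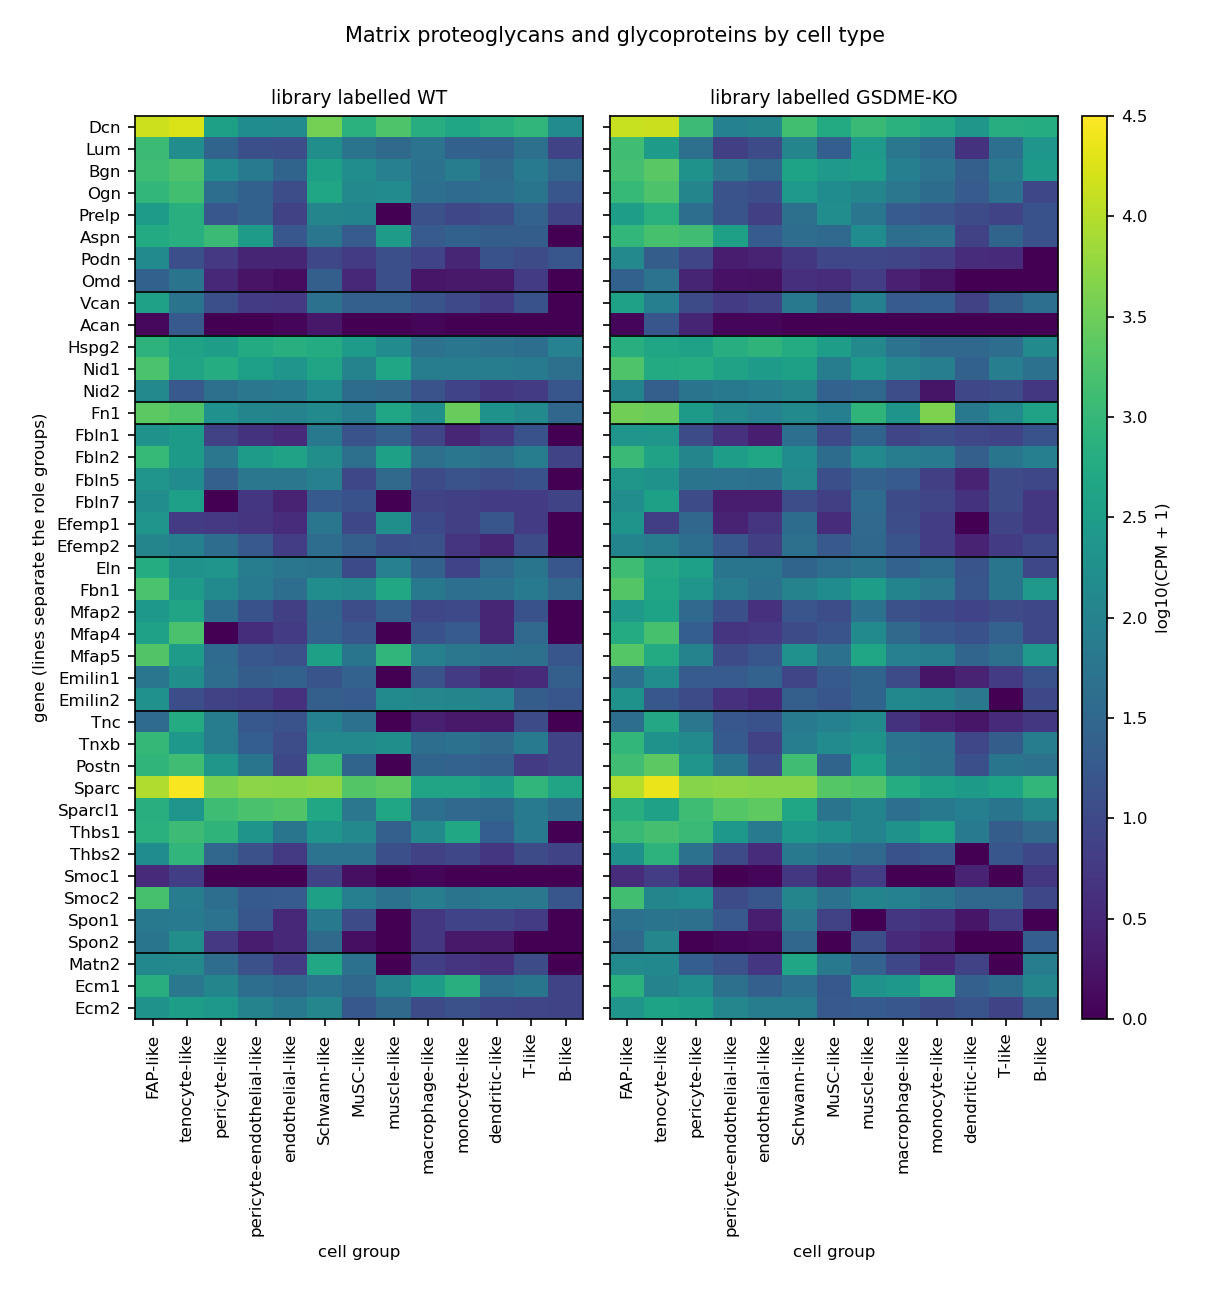
Level of each of the 41 members (rows, grouped by role) in 13 cell types (columns) of the WT-labelled (left) and KO-labelled (right) library, as log10 of CPM plus 1. The brightest cells lie in the FAP-like and tenocyte-like columns, where Dcn reaches 14159 and 17435 CPM in the WT-labelled library, while Fn1 is also bright in monocyte-like cells and Sparc in nearly every stromal column.

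Among the small leucine-rich proteoglycans, Dcn (decorin) was at 14159 and 13029 CPM in FAP-like cells of the WT-labelled and KO-labelled libraries and at 17435 and 14043 CPM in tenocyte-like cells. Bgn (biglycan), its closest relative, followed the same order of types, with 1261 and 1438 CPM in FAP-like and 1753 and 2247 CPM in tenocyte-like cells. Ogn (osteoglycin) was likewise higher in tenocyte-like cells (1391 and 1757 CPM) than in FAP-like cells (960.4 and 1038 CPM). Lum (lumican) went the other way, with 1186 and 1295 CPM in FAP-like and only 162 and 306 CPM in tenocyte-like cells. Podn (podocan) followed the order of Lum, at 142 and 129 CPM in FAP-like against 11.4 and 20.5 CPM in tenocyte-like cells, and was above background in FAP-like cells alone among the types read. Aspn (asporin, which binds collagen and TGF-β) differed from the rest of its family, because pericyte-like cells read it at 1152 and 1324 CPM, against 670 and 1538 CPM in tenocyte-like cells. Its pericyte-like signal was spread over cells, with UMIs in 134 of 182 and 161 of 200 cells. Prelp, an anchor between basement membrane and collagen, was at 289 and 313 CPM in FAP-like and 664 and 713 CPM in tenocyte-like cells, and Omd was low throughout, with its highest levels of 52.5 and 50.2 CPM in tenocyte-like cells.

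The 2 hyalectans were split between the fibroblasts. Vcan (versican), the hyaluronan-binding proteoglycan of loose matrix, was at 372 and 373 CPM in FAP-like and 52.7 and 88.2 CPM in tenocyte-like cells. Acan (aggrecan), the corresponding proteoglycan of cartilage and of tendon under compression, was above background only in tenocyte-like cells, at 17.4 CPM (13.98 to 21.37) and 14.8 CPM (11.44 to 18.75), and was read from 3 and 4 UMIs in all FAP-like cells.

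Basement membrane genes were read in many types, as Hspg2 and Nid1 were above background in 7 types and Nid2 in 5, beside 8 for Sparc and Thbs1. Hspg2 (perlecan, a heparan sulfate proteoglycan) was at 802 and 651 CPM in FAP-like, 693 and 840 CPM in endothelial-like, 597 and 591 CPM in Schwann-like and 308 and 335 CPM in MuSC-like cells, so that FAP-like cells led in the WT-labelled and endothelial-like cells in the KO-labelled library. Nid1 (nidogen-1), which bridges laminin and collagen IV, was at 1699 and 1849 CPM in FAP-like and at 614 and 605 CPM in pericyte-like cells. Nid2, its paralog, was instead led by Schwann-like cells (150.1 and 110.4 CPM), with FAP-like cells close behind at 130.3 and 107 CPM and endothelial-like cells at 74.0 and 83.9 CPM. For Nid2 the Schwann-like and FAP-like intervals overlapped in both libraries.

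Fn1 (fibronectin), the adhesive glycoprotein of provisional matrix, was at 2364 and 3366 CPM in FAP-like and 1802 and 2932 CPM in tenocyte-like cells, but its highest level was in monocyte-like cells, at 2884 and 4112 CPM. The monocyte-like signal came from 100 of 108 and 141 of 144 cells, with medians of 25.8 and 36.0 UMIs per 10000, and was not held by a few cells, as the 5 richest carried 14.9% and 15.7% of the UMIs. Among the 10 leading genes of the monocyte-like cluster 1 was a monocyte marker (Lyz1), and the others included Retnla, Ccl6 and Ear2. Macrophage-like cells were at 174 and 212 CPM and the lymphocytes at 91.4 and 202 CPM, so that the levels were near each other in the KO-labelled library only. In that library B-like cells gave 91 of the 152 lymphocyte UMIs of Fn1, 86 of them in 5 cells. Ecm1, a secreted adaptor that binds perlecan and fibulins, was shared between the same types: 695 and 736 CPM in FAP-like, 674 and 719 CPM in monocyte-like and 298 and 251 CPM in macrophage-like cells. Emilin2 was also read in myeloid cells, at 122 and 126 CPM in macrophage-like and 116 and 106 CPM in monocyte-like cells against 192 and 202 CPM in FAP-like cells. In neutrophil-like cells (21 and 32 cells, too few to be ranked) Emilin2 was at 522 and 556 CPM.

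**Figure D2:**
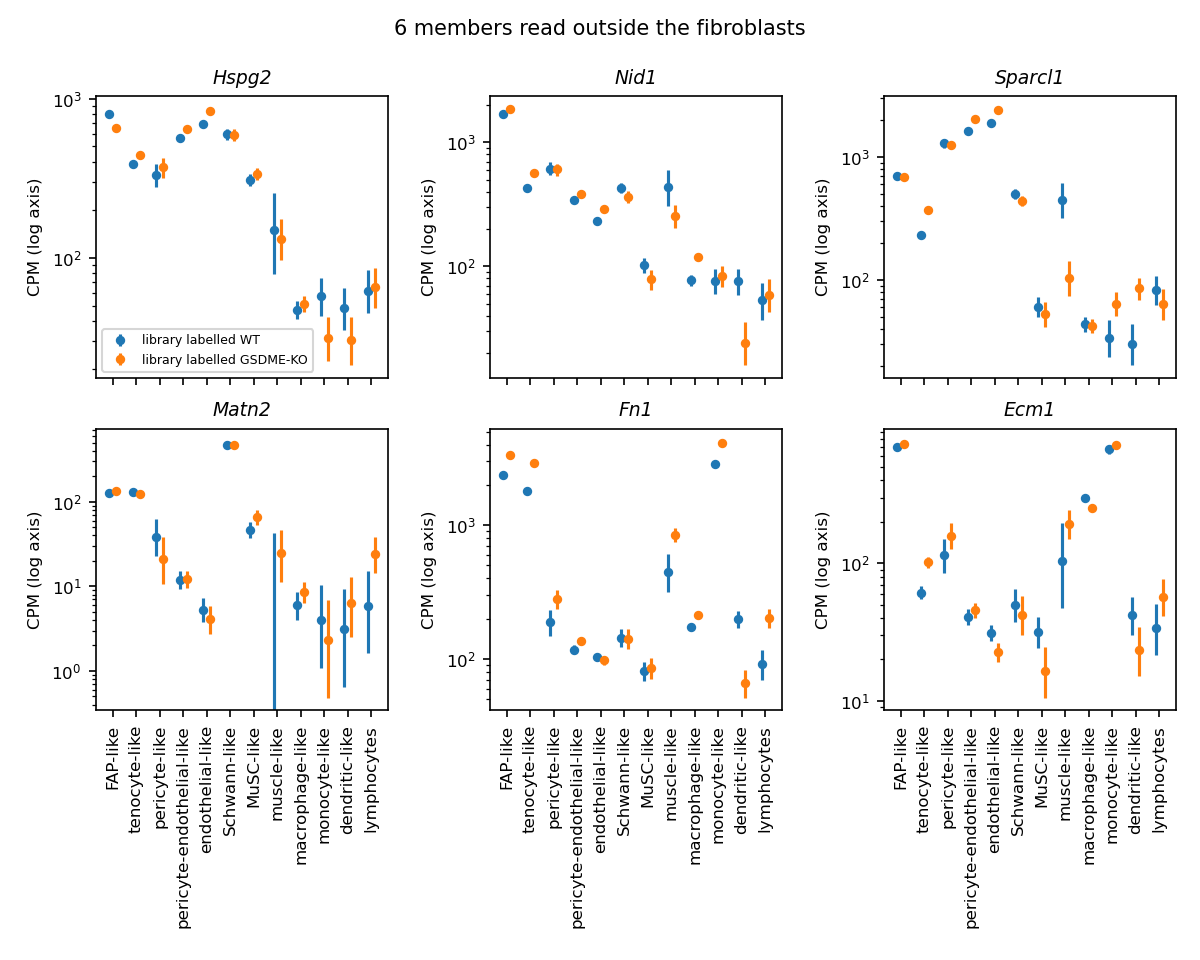
CPM on a log axis of 6 members with high levels outside the fibroblasts, by cell type and library; points are the summed level, bars the exact 95% Poisson interval, and the last column the lymphocytes. Fn1 peaks in monocyte-like cells at 2884 and 4112 CPM, Matn2 in Schwann-like cells at 475 and 466 CPM and Sparcl1 in endothelial-like cells at 1875 and 2421 CPM.

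Fibulins divided between the fibroblast types. Fbln2 was at 1014 and 1138 CPM in FAP-like cells and at 387 and 456 CPM in endothelial-like cells, where Fbln5 too was above background (59.4 and 47.2 CPM). Efemp1 (fibulin-3) was at 223 and 215 CPM in FAP-like cells and at 5.41 and 5.95 CPM in tenocyte-like cells, the steepest difference between both fibroblast types among the fibulins. Fbln7 showed the opposite order (161 and 159 CPM in FAP-like, 343 and 354 CPM in tenocyte-like cells), as did Fbln1, with 205 and 219 CPM against 285 and 241 CPM. Fbln5, which docks elastin onto microfibrils, was at 220 and 237 CPM in FAP-like and 156 and 196 CPM in tenocyte-like cells, and Efemp2 (fibulin-4), which presents lysyl oxidase to elastin, was at 109 and 105 CPM and at 85.97 and 78.46 CPM.

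In the elastic fibre group, the fibrillin Fbn1 and the microfibril-associated Mfap5 were FAP-like genes, Fbn1 with 1712 and 1937 CPM against 294 and 434 CPM in tenocyte-like cells and Mfap5 with 1887 and 2063 CPM against 296 and 571 CPM. Mfap4 and Mfap2 were led by tenocyte-like cells instead, Mfap4 with 1618 and 1521 CPM against 369.6 and 592 CPM and Mfap2 with 419 and 411 CPM against 253 and 258 CPM. Eln (elastin) itself was at 616 and 1258 CPM in FAP-like, 206 and 522 CPM in tenocyte-like and 221 and 340.3 CPM in pericyte-like cells. In the pericyte-like cells 5 cells held 76.3% and 69.3% of the Eln UMIs. Emilin1, whose product links elastin to cells, was at 58.3 and 43.5 CPM in FAP-like and 176 and 160.2 CPM in tenocyte-like cells.

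Of the matricellular genes, Sparc, a collagen-binding chaperone-like glycoprotein, was high in all stromal types: 9103 and 9785 CPM in FAP-like, 28870 and 23024 CPM in tenocyte-like, 5062 and 4763 CPM in endothelial-like and 5737 and 4849 CPM in Schwann-like cells. Its relative Sparcl1 was a vascular gene, with 1875 and 2421 CPM in endothelial-like and 1289 and 1253 CPM in pericyte-like against 695 and 685 CPM in FAP-like cells. Tnc (tenascin-C) belonged to tenocyte-like cells (577 and 521 CPM, against 36.7 and 41.3 CPM in FAP-like cells), whereas Tnxb (tenascin-X) was a FAP-like gene at 989.5 and 964 CPM against 248 and 194 CPM. Postn (periostin) was at 870.2 and 1328 CPM in FAP-like, 1325 and 2304 CPM in tenocyte-like and 1060.0 and 1331 CPM in Schwann-like cells. Thbs1 (thrombospondin-1, an activator of latent TGF-β) was at 709 and 1085 CPM in FAP-like, 1222 and 1507 CPM in tenocyte-like and 849 and 1083 CPM in pericyte-like cells, and Thbs2 at 155 and 181 CPM in FAP-like and 901 and 820 CPM in tenocyte-like cells. Smoc2 was at 1557 and 1359 CPM in FAP-like and 76.7 and 117 CPM in tenocyte-like cells. Spon1 and Spon2, the spondins, stayed under 165 CPM in both fibroblast types.

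Matn2 (matrilin-2), a filament-forming adaptor, was the clearest Schwann-like member, at 475 and 466 CPM against 127 and 135 CPM in FAP-like cells, with UMIs in 107 of 197 and 86 of 156 Schwann-like cells. Ecm2 was spread over tenocyte-like (330 and 401 CPM), pericyte-like (251 and 327 CPM) and FAP-like cells (207 and 223 CPM).

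The FAP-like and tenocyte-like cells were then clustered again, which gave 5 FAP subsets named by their markers and the tenocyte-like cells (412 and 378 cells in this second clustering). The subsets were Pi16 Dpp4-like (285 and 361 cells), Hsd11b1 Mme-like (222 and 301), Ccl7 Ifi205-like (607 and 811, led also by interferon-induced genes), Sfrp4 Gdf10-like (217 and 241, the shallowest with medians of 3611 and 2932 UMIs) and Clu Cyp2f2 Myoc-like (260 and 297). Hsd11b1 Mme-like cells were led also by heat-shock and immediate early genes such as Hspa1a and Fos, and Pi16 Dpp4-like cells also by hemoglobin genes. Further clusters stayed unnamed. The largest held 271 and 319 cells (median, 1306.5 UMIs), with muscle genes such as Ckm and Acta1 among its leading genes. Smaller ones were led by endothelial genes (30 and 22 cells) and by genes such as Cd74 and C1qb (9 and 17). These cells are in no subset level but remain in the FAP-like and tenocyte-like sums. Since these cells were grouped on other genes of the same cells, the levels that follow are a description and carry no test. The same subset led in both libraries for 36 of 41 members, and for 27 of them with an interval clear of the second subset in both. Tenocyte-like cells led 14 of the 36, Pi16 Dpp4-like 8, Hsd11b1 Mme-like 7, Sfrp4 Gdf10-like 4, Ccl7 Ifi205-like 2 and Clu Cyp2f2 Myoc-like 1.

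**Figure D3:**
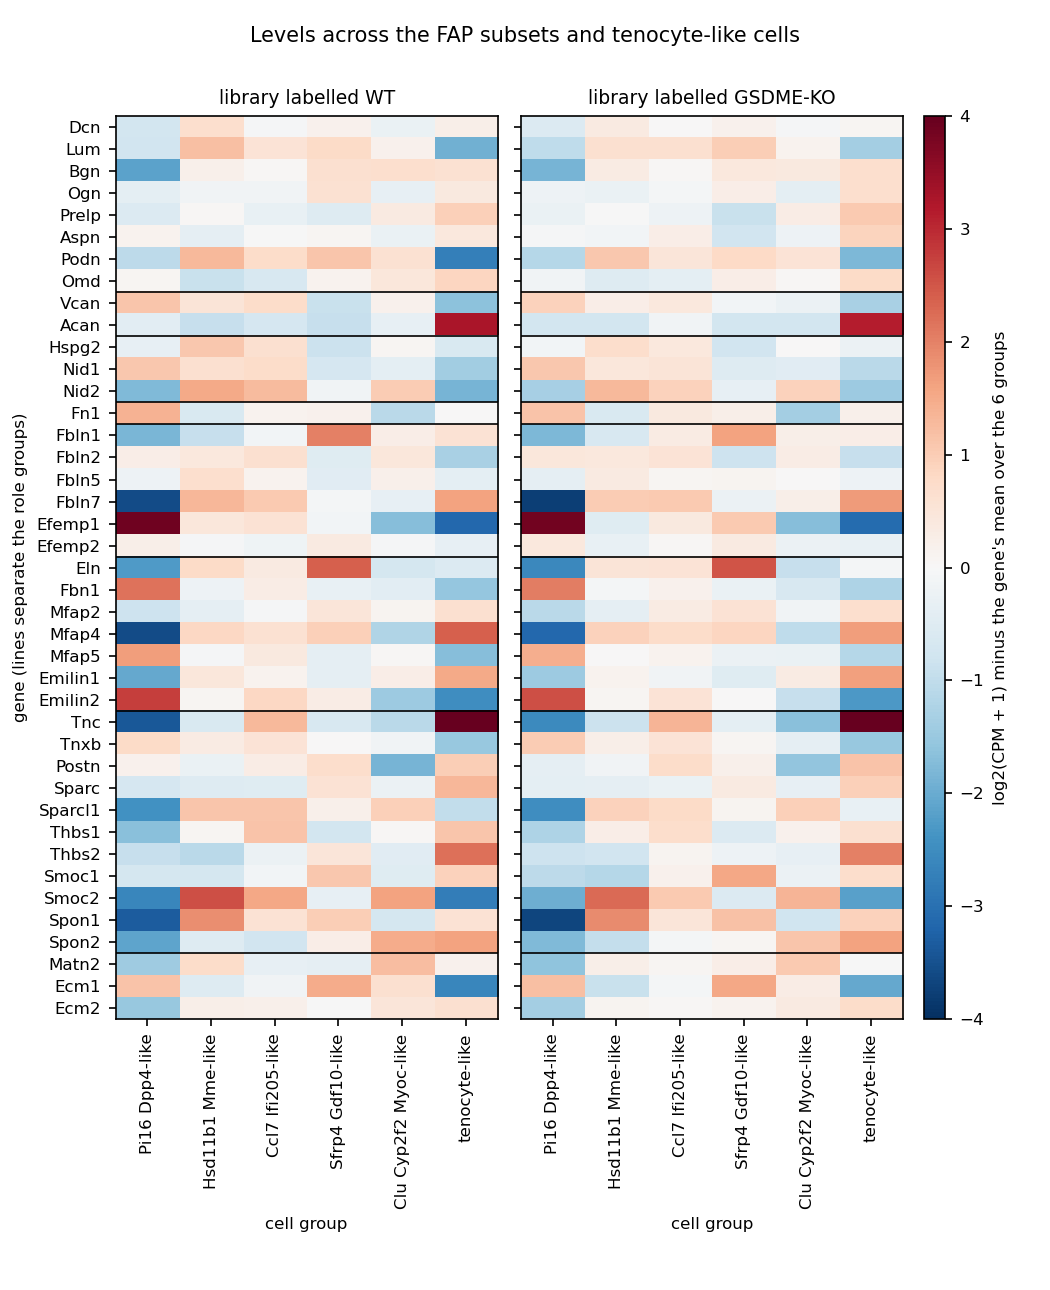
Levels of the 41 members in the 5 FAP subsets and in tenocyte-like cells, each shown as log2 of CPM plus 1 minus the gene's own mean over the 6 groups, for the WT-labelled (left) and KO-labelled (right) library. Efemp1, Emilin2, Fbn1 and Mfap5 stand out in the Pi16 Dpp4-like column, Eln and Fbln1 in the Sfrp4 Gdf10-like column, and Tnc, Acan, Mfap4 and Thbs2 in the tenocyte-like column, in both libraries alike.

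Pi16 Dpp4-like FAPs, known as progenitors of the interstitial fascia, led the microfibril genes Fbn1 and Mfap5 but not elastin. Fbn1 was at 4485 and 4811 CPM there, 3.67-fold and 3.60-fold above the next subset, and Mfap5 was at 3909.8 and 4169 CPM, 2.39-fold and 2.49-fold above it. Emilin2 was at 545 and 554 CPM (3.86-fold and 4.16-fold) and Efemp1 at 860.1 and 807 CPM (10.1-fold and 7.12-fold). Fn1, Nid1, Vcan and Tnxb were also highest in these cells, Fn1 at 4864 and 5749 CPM and Nid1 at 2380.1 and 2706 CPM. By contrast, Eln was lowest in Pi16 Dpp4-like cells, with 84.2 and 141 CPM, as were Mfap4 (24.9 and 51.7 CPM), Fbln7 (8.42 and 6.86 CPM), Spon1 (3.61 and 1.43 CPM) and Tnc (1.604 and 4.002 CPM). Mfap2, whose product is also associated with microfibrils, did not follow Fbn1 and Mfap5, as it was lowest in Pi16 Dpp4-like cells (152 and 121 CPM) and among the FAP subsets highest in Sfrp4 Gdf10-like cells (379.5 and 388 CPM).

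Elastin was led by Sfrp4 Gdf10-like cells, at 2168 and 4827 CPM, 3.12-fold and 3.94-fold above the next subset and 25.7-fold and 34.2-fold above Pi16 Dpp4-like cells. Fbln1 was highest in the same subset (772 and 625 CPM), as was Ecm1 (1361 and 1595 CPM), for which Pi16 Dpp4-like cells came second with 1079.8 and 1259.9 CPM.

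Hsd11b1 Mme-like cells led Dcn (23501 and 16855 CPM), Smoc2 (3606 and 3139 CPM), Hspg2 (1264 and 851 CPM), Podn (225 and 201 CPM), Nid2 (203 and 161 CPM), Fbln5 (325 and 293 CPM) and Spon1 (168 and 113 CPM). Smoc2 ranged 40.9-fold and 21.9-fold over the 6 groups, and Dcn 2.64-fold and 1.89-fold, while Efemp2, the most even member in the WT-labelled library, ranged 1.63-fold and 1.65-fold. Ccl7 Ifi205-like cells had the highest Thbs1 (1188 and 1526 CPM), which tenocyte-like cells nearly equalled in the WT-labelled library at 1183 CPM, and Fbln2 (1163 and 1226 CPM). Clu Cyp2f2 Myoc-like cells, whose markers are known from fibroblasts around nerves, led Matn2 at 283 and 267 CPM.

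Tenocyte-like cells led 14 members, of which Tnc (574 and 509.9 CPM) was 8.65-fold and 6.91-fold, Thbs2 (888 and 807 CPM) 3.30-fold and 3.74-fold, Mfap4 2.67-fold and 1.69-fold and Emilin1 2.11-fold and 2.49-fold above the next subset. The leading subset changed between libraries for Lum, Bgn, Ogn, Efemp2 and Sparcl1, in which the first and second subset lay within 1.35-fold of each other.

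The question that the design poses is whether loss of GSDME goes with a different matrix program in the same cell types. In FAP-like cells 5 members passed 1.5-fold higher in the KO-labelled library with an interval clear of no change, and 1 passed lower, out of 40 measured with at least 50 UMIs. Over all 11559 genes measured in these cells, 3.09% passed higher and 5.99% lower. The median log2 ratio of the members was 0.09 beside -0.06 for all genes, and 27 members lay above and 13 below 0.

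**Figure D4:**
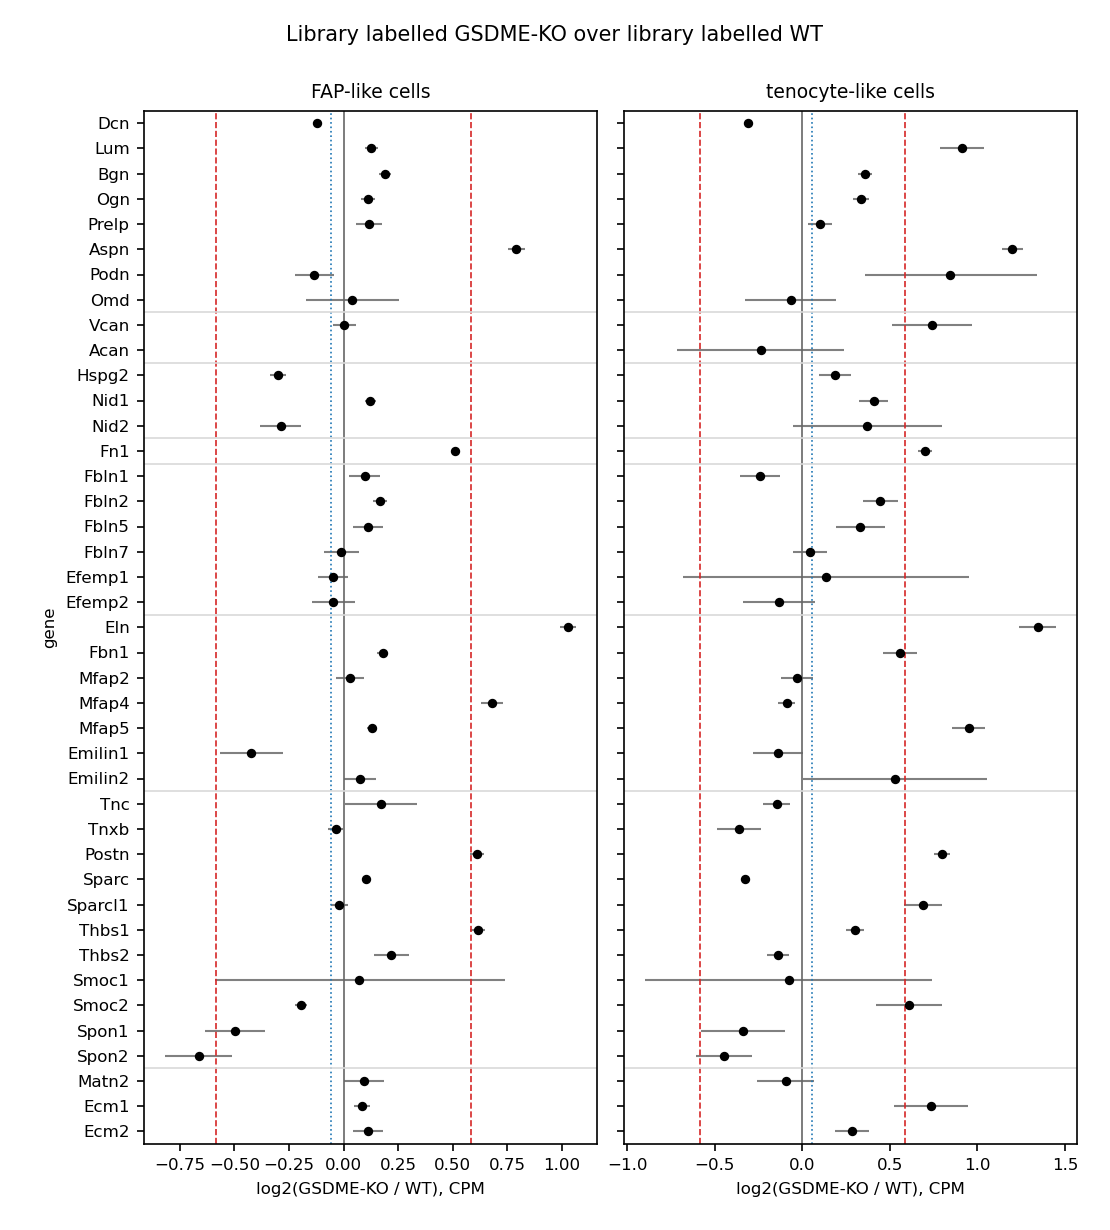
Log2 ratio of CPM in the KO-labelled over the WT-labelled library for each member in FAP-like (left) and tenocyte-like (right) cells, with the exact 95% interval for counting error; dashed lines mark 1.5-fold, the dotted line the median of all genes, and the x axes differ in range. Eln lies farthest to the right in both panels (1.03 and 1.34), while most members of the left panel lie between the dashed lines.

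Eln was at 616 CPM (603 to 629.7) in the WT-labelled and 1258 CPM (1242 to 1274) in the KO-labelled library, a log2 ratio of 1.03 (0.99 to 1.07). The 75th percentile over cells was 4.22 and 6.14 UMIs per 10000 and the 90th percentile 15.1 and 26.04, so that the difference was present in the cells above the 75th percentile, and 5 cells held 18.1% and 13.01% of all UMIs. Eln was higher in the KO-labelled library in all 6 groups of the second clustering, with a log2 ratio of 0.75 in Pi16 Dpp4-like, 0.81 in Hsd11b1 Mme-like, 0.81 in Clu Cyp2f2 Myoc-like, 1.15 in Sfrp4 Gdf10-like, 1.21 in Ccl7 Ifi205-like and 1.52 in tenocyte-like cells. In tenocyte-like cells, however, 5 cells held 66.9% and 41.4% of the Eln UMIs.

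Aspn was at 553 CPM (540.4 to 566) and 957 CPM (943 to 971), a log2 ratio of 0.79 (0.75 to 0.83). Its median over FAP-like cells was 1.97 and 5.11 UMIs per 10000. Aspn was higher in 4 of 5 FAP subsets (log2 0.53 in Pi16 Dpp4-like, short of 1.5-fold, to 0.99 in Ccl7 Ifi205-like cells). It was not higher in Sfrp4 Gdf10-like cells, where it was at 580.4 and 524 CPM.

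Mfap4, an elastic fibre protein that binds tropoelastin, was at 369.6 and 592 CPM, or 0.68 on the log2 scale (0.63 to 0.73), and was higher in all 5 FAP subsets (0.48 to 1.06) but not in tenocyte-like cells, where the log2 ratio was -0.12. The remaining elastic fibre genes of FAP-like cells lay close to no change, as Fbn1 was at 0.18, Mfap5 at 0.13, Mfap2 at 0.03 and Emilin2 at 0.08 on the log2 scale, and Emilin1 was lower at -0.42 (-0.57 to -0.28).

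Postn was at 870.2 CPM (854 to 886) and 1328 CPM (1311 to 1344), a log2 ratio of 0.61 (0.58 to 0.64). By subset, its log2 ratio was 0.97 in Ccl7 Ifi205-like, 0.82 in Clu Cyp2f2 Myoc-like and 0.65 in Hsd11b1 Mme-like cells but 0.02 in Pi16 Dpp4-like and 0.06 in Sfrp4 Gdf10-like cells. Thbs1 was at 709 CPM (695 to 724) and 1085 CPM (1070.0 to 1100.1), also a log2 ratio of 0.61 (0.58 to 0.65), and showed nearly the reverse order of subsets, with 1.22 in Pi16 Dpp4-like and 0.98 in Sfrp4 Gdf10-like cells but 0.36 in Ccl7 Ifi205-like cells. Fn1, at 2364 CPM (2338 to 2390.3) and 3366 CPM (3340 to 3393), stopped just short of 1.5-fold with a log2 ratio of 0.51 (0.49 to 0.53), although its median over cells was 12.4 and 21.7 UMIs per 10000. Spon2, a secreted spondin, was the member past 1.5-fold in the other direction, at 55.3 CPM (51.4 to 59.5) and 34.9 CPM (32.3 to 37.7), a log2 ratio of -0.66 (-0.82 to -0.51). It no longer passed without the Harmony correction between libraries (-0.57), with 10 CPM added (-0.54) or with the same mix of subsets in both libraries (-0.56), where Spon1 passed lower in its place. Its relative Spon1 lay just inside the threshold at -0.50 (-0.63 to -0.36).

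**Figure D5:**
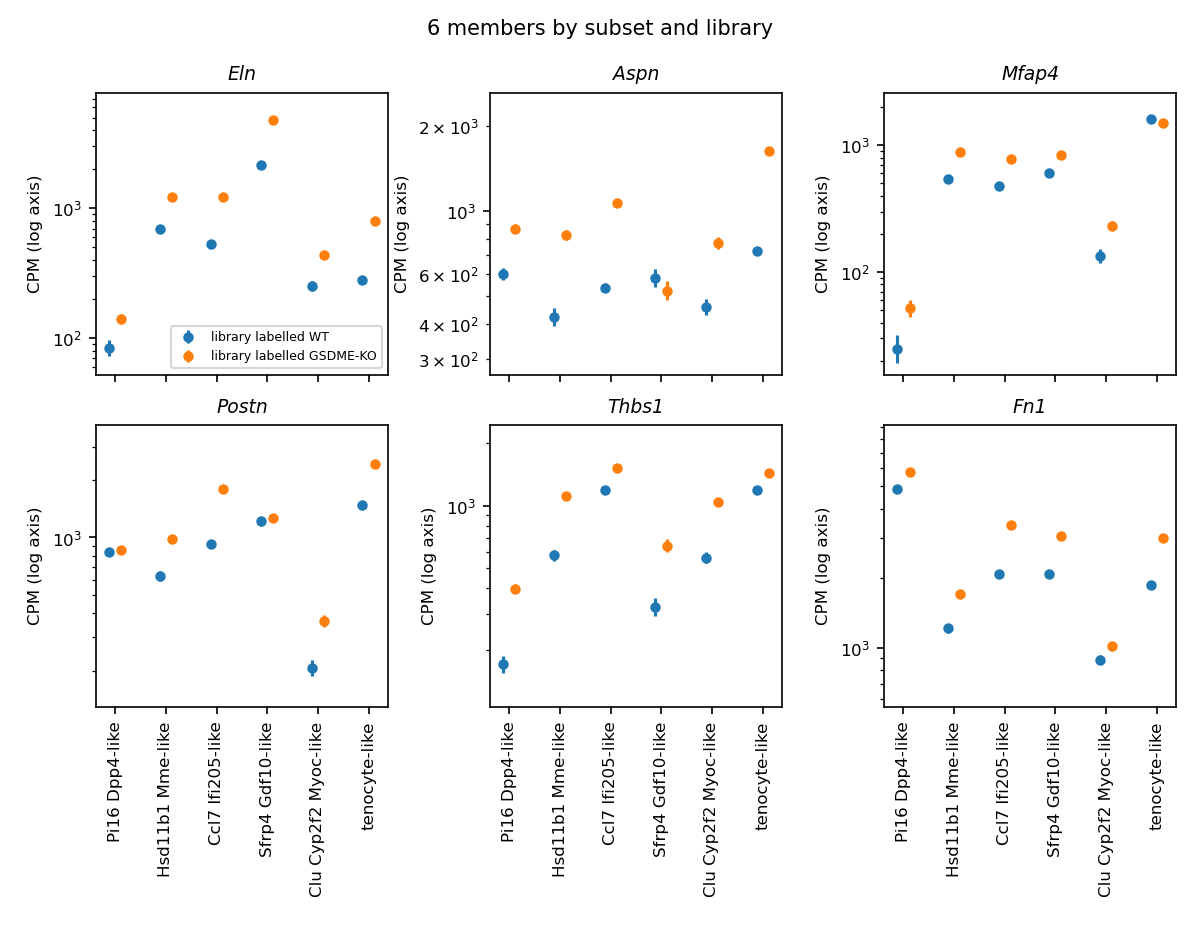
CPM on a log axis of Eln, Aspn, Mfap4, Postn, Thbs1 and Fn1 in the 5 FAP subsets and tenocyte-like cells of the WT-labelled (blue) and KO-labelled (orange) library, with exact 95% Poisson intervals. Eln and Thbs1 are higher in the KO-labelled library in all 6 groups, Mfap4 is not in tenocyte-like cells, and Aspn is not in Sfrp4 Gdf10-like cells, where its levels are 580.4 and 524 CPM.

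Apart from Aspn, the small leucine-rich proteoglycans and Vcan stayed inside 1.5-fold. Dcn was at a log2 ratio of -0.12 (-0.13 to -0.11), Lum at 0.13 (0.10 to 0.16), Bgn at 0.19 (0.16 to 0.22), Ogn at 0.11 (0.08 to 0.14), Prelp at 0.12 (0.06 to 0.17) and Vcan at 0.00 (-0.05 to 0.06). Hspg2 was at -0.30 (-0.34 to -0.26) and Nid2 at -0.29 (-0.38 to -0.19) in FAP-like cells, while Hspg2 in endothelial-like cells was at 0.28 (0.22 to 0.33). The 6 fibulins lay between -0.05 and 0.17.

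In tenocyte-like cells 11 of 41 members passed 1.5-fold higher in the KO-labelled library and 0 lower, where 6.33% and 3.58% of all 9269 genes did so, and the median of the members was 0.28 beside 0.05 for all genes. Past that threshold were Eln (206 and 522 CPM; log2 1.34), Aspn (670 and 1538 CPM; interval, 1.14 to 1.26), Mfap5 (296 and 571 CPM; 0.95), Lum (162 and 306 CPM; 0.91), Podn (11.4 and 20.5 CPM; 0.85), Postn (1325 and 2304 CPM; 0.80), Vcan (52.7 and 88.2 CPM; 0.74), Ecm1 (61.2 and 102 CPM; 0.73), Fn1 (1802 and 2932 CPM; 0.70), Sparcl1 (231 and 372 CPM; 0.69) and Smoc2 (76.7 and 117 CPM; 0.61). Of these 11, 7 are genes led by FAP-like cells in the comparison of types (Eln, Mfap5, Lum, Podn, Vcan, Ecm1 and Smoc2). Podn alone among the 11 was not above background in tenocyte-like cells. Of the 18 members led by tenocyte-like cells in both libraries, 11 lay below 0 in those cells (7 with an interval clear of it) and 7 above 0 (6 with an interval clear of it), and their median was -0.08. The lowest were Spon2 at -0.45 (-0.60 to -0.29), Sparc at -0.33 (-0.34 to -0.31) and Dcn at -0.31 (-0.33 to -0.30). The highest were Postn, Bgn at 0.36 (0.32 to 0.40) and Ogn at 0.34 (0.29 to 0.38), while Tnc was at -0.15 (-0.22 to -0.07) and Mfap4 at -0.09 (-0.14 to -0.04). For Postn the median over tenocyte-like cells was 0 and 3.29 UMIs per 10000, and for Fn1 10.3 and 17.0, so that these 2 differed in the typical cell and not only in a few. Of the Postn UMIs, however, 5 cells held 39.2% and 14.6%, and of the Fn1 UMIs 18.3% and 13.4%, which weighs on the summed levels.

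Several other measures moved with these ratios, and their part in the result was not tested. In FAP-like cells the 11 tenocyte markers summed to 577 and 951 CPM (log2 0.72), none of them at 0, with 6 above and 5 below no change. Thbs4 was at 406 and 726 CPM and Comp at 85.3 and 145 CPM, and without these the other 9 summed to 86.2 and 80.5 CPM (log2 -0.10). In the same cells the 5 red cell genes were at 69.3 and 566 CPM, and the 7 endothelial markers at 70.9 and 37.5 CPM. Of 15 genes of the response to tissue dissociation, 6 passed 1.5-fold higher and 0 lower in FAP-like cells (median log2 0.39), with Hspa1a at 390.4 and 1392 CPM, and 7 and 0 in tenocyte-like cells (median 0.40).

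Genes that act together with the members were read from lists. Of 17 glycosaminoglycan assembly enzymes measured in FAP-like cells, which build the sugar chains of proteoglycans, 0 passed 1.5-fold in either direction (median log2 -0.06, beside -0.06 for all genes). Of 10 elastic fibre partners, the latent TGF-β binding protein Ltbp2 alone passed higher, from 4.99 to 11.04 CPM, and the median was 0.13. The lysyl oxidase Loxl1, which cross-links elastin, was at 384 and 469 CPM (log2 0.29). In tenocyte-like cells Ltbp2 (42.7 and 124 CPM), Loxl1 (141 and 241 CPM) and Ltbp4 passed higher. Of 9 further matricellular and leucine-rich genes in FAP-like cells, the tendon genes Comp and Thbs4 passed higher and Kera (11.4 and 5.76 CPM) and Chad (3.02 and 1.08 CPM) lower, the last 4 all being tenocyte markers.

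Outside the fibroblasts, 26 members or fewer were above background in a type. Fn1 in monocyte-like cells was at a log2 ratio of 0.51 (0.45 to 0.58), equal to that in FAP-like cells. Sparcl1 in endothelial-like cells was at 0.37 (0.34 to 0.40). In macrophage-like cells 13 of 35 members measured passed higher and 0 lower (4.68% and 5.59% of all genes), yet only 4 members were above background there. Thbs1 was 1 of those 4, at 132 and 200 CPM (log2 0.59, 0.45 to 0.74), from 138 of 854 and 189 of 1030 cells. In Schwann-like cells 9 of 32 members passed lower and 0 higher (4.4% and 5.25% of all genes), all of them led by FAP-like or tenocyte-like cells, such as Dcn (3592 and 1366 CPM), for which 5 cells held 37.0% and 53.8% of the UMIs and the median cell had 0, whereas the Schwann-like gene Matn2 was at -0.03 (-0.22 to 0.16). In MuSC-like cells 5 of 29 members passed higher and 4 lower (11.4% and 8.19%), among them Bgn (159 and 276 CPM; log2 0.80, 0.58 to 1.02), which was read in 117 of 249 and 140 of 245 cells, and Tnc (47.9 and 95.5 CPM; interval, 0.60 to 1.40), of which 5 cells held 51.7% and 53.2%. In the same MuSC-like cells 11 of the 15 dissociation response genes passed higher (median log2 0.71), and their part in the result was not tested.

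The other types differed in direction. In pericyte-like cells 8 of 20 members passed higher and 0 lower (5.32% and 8.39% of all genes), beside 9 of 15 dissociation response genes higher (median log2 0.69). Of these 8 members only Fbn1 and Eln were above background in pericyte-like cells, and 5 cells held 39.0% and 87.2% of the Dcn UMIs. In pericyte-endothelial-like cells 0 of 32 passed higher and 6 lower (4.37% and 3.35%), in endothelial-like cells 1 of 31 higher and 3 lower (3.49% and 3.46%), and in monocyte-like cells 4 of 20 higher and 1 lower (7.25% and 6.01%). None of the members that passed in pericyte-endothelial-like, endothelial-like or monocyte-like cells was above background in that type. In dendritic-like cells, where 1 member was above background, 2 of 15 passed higher and 10 lower (7.22% and 6.12%), and in muscle-like cells (30 and 64 cells) 5 of 17 higher and 6 lower (11.8% and 14.5%). Among the lymphocytes themselves, 7 of 7 members measured in B-like cells (40 and 56 cells) passed higher and 0 lower (6.58% and 13.7%). Lum was read there from 1 and 53 UMIs, Fn1 from 4 and 91 and Dcn from 20 and 141. These members reached the minimum of UMIs only through the KO-labelled library, so that the B-like count cannot show a direction. In that library 5 cells or fewer held 100% of the Lum, 94.5% of the Fn1 and 83.7% of the Dcn UMIs. In T-like cells 0 of 8 members passed higher and 1 lower (6.55% and 9.75%).

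The upstream sequences of Aspn and Postn are given because both genes passed 1.5-fold higher in FAP-like and in tenocyte-like cells of the KO-labelled library and have a RefSeq window. RefSeq windows of GRCm38.p6 cover 27 of the 41 members. The 250 bases before the start are printed 5′ to 3′ on the plus strand, with matches to TATAAA or its complement in capitals; a search on both strands for the AP-1 site TGANTCA found none in either.
Aspn, chr13:49544193-49544442: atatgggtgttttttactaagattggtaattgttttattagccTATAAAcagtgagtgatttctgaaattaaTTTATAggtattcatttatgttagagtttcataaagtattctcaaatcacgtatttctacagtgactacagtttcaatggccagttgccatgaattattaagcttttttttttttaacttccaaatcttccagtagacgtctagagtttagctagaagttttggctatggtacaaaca
Postn, chr3:54360857-54361106: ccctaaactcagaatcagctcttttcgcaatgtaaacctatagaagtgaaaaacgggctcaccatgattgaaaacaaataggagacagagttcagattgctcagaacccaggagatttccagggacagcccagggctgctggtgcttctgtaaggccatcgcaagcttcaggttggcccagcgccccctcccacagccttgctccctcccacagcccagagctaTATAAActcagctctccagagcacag
In Postn the match begins 26 bases before the start, and in Aspn the matches begin 207 and 178 bases before it. A second Postn window, chr3:54359017-54359266, held no match. Of all 32851 windows, 12.4% held TATAAA and 6.75% held TGANTCA, and of the 36 windows of members 7 and 3 did. These matches describe the sequence only. Eln, Mfap4, Thbs1 and Fn1 are named without a sequence.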

How the data were processed

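Cells of gastrocnemius muscle were captured with a 10x Genomics 5′ kit. The authors aligned and counted reads with Cell Ranger (version 2.1.1 and build mm10 in the submitters' processing notes; the methods name another version), removed doublets and cells rich in mitochondrial RNA, and deposited 1 table of 19169 genes by 13432 cells. Each deposited value is a natural log, taken of 1 plus the UMIs of a gene after scaling its cell to 10000. No mitochondrial gene is listed. The barcode ending names the library, as the series' design text states. The log was undone and every value came within 0.256 of a whole UMI, over 29528482 values. This step was tried on values rebuilt from the recovered UMIs, and the calls below on simulated Poisson counts of FAP-like cells. The simulation held no spread between cells or between libraries, so it cannot show how these affect the calls.

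Cells were clustered with 2000 variable genes without the members, 30 principal components, a rewritten Harmony step (the published correction between libraries), 20 neighbours and Leiden clustering at resolution 0.8 (FAP-like and tenocyte-like cells: 20 components and 0.5) in Python 3.11.15 with numpy 2.4.6, scipy 1.17.1, scanpy 1.11.5 and leidenalg 0.10.2. A cluster was named after the set whose markers had the largest average log2 fold, and stayed unnamed with under 3 detected markers or where another set led its 10 top genes. After clusters were seen, FAP subset markers were counted as FAP markers, red cell genes were left out of the rule on mixed lineages, clusters with a mean log2 fold under 1 and no marker among the top 10 were left unnamed, and pericytes with endothelial RNA were set apart. UMIs were summed per group and library, scaled to CPM and given exact 95% Poisson intervals, and ratios carry exact binomial intervals. UMIs of 1 cell are not independent, so that intervals cover counting error only and are too narrow where few cells hold most UMIs. A member passed when its ratio exceeded 1.5-fold (log2 0.58), the interval was clear of 0 and both libraries together held at least 50 UMIs. UMI levels are not scaled by gene length. All members are accounted for, and values are printed for up to 5 members of each role group with the highest level, for members past 1.5-fold in FAP-like cells and for Gsdme; the others were added to complete each role group. The members and lists were chosen with earlier results of these data known. The total of UMIs per cell ran from 385 to 83203 in the WT-labelled and from 420.0 to 79159 in the KO-labelled library.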

Additional observations from a re-analysis of the deposited data

Results flagged for a closer look

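Cell groups smaller than 50 in either library were left out here, which removed muscle-like cells (30 and 64). Among the remaining types, 3 members were past 1.5-fold higher in the KO-labelled library in 1 type and past 1.5-fold lower in another. Each was above the lymphocyte level in both cell types named. In muscle-like cells Aspn and Mfap5 were past 1.5-fold lower and above the lymphocyte level, while both passed higher in tenocyte-like cells. With 1 library per genotype these differences were not tested. Smoc2 was higher in tenocyte-like cells (76.7 and 117 CPM) and lower in Schwann-like cells (363 and 115 CPM) and MuSC-like cells (85.0 and 48.8 CPM), so that its log2 ratios differed by 2.27 and 1.41. In Schwann-like cells 5 cells held 55.4% and 64.2% of its UMIs, and in MuSC-like cells 79.1% and 77.5%. In tenocyte-like cells 5 cells held 34.3% and 33.5% of them, and the median cell had 0 in both libraries. Mfap5 was higher in tenocyte-like cells (296 and 571 CPM) and lower in Schwann-like cells (355 and 188 CPM), a difference of 1.86 between the log2 ratios. For Mfap5, 5 Schwann-like cells held 33.4% and 38.5% of the UMIs, and 5 tenocyte-like cells 26.6% and 19.0%. Prelp was higher in MuSC-like cells (105 and 162 CPM), where it was read in 113 cells of each library, and lower in Schwann-like cells (109 and 44.4 CPM), where 5 cells held 62.7% and 68.3% of its UMIs, a difference of 1.93.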

How the results depend on the processing

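No paired analysis was possible because the labels carry no replicate numbers and there is 1 library per genotype. Of 103 alternative values for the counts and medians, 95 stayed within 1.5 times the count or within the interval. The count of members lower in FAP-like cells (1) was 0 without Harmony and with 10 CPM added, and 3 when the fold threshold was lowered to log2 0.32. At that threshold the counts in tenocyte-like cells were 18 higher and 4 lower. At 1.5-fold, Postn and Sparcl1 no longer passed higher in tenocyte-like cells without Harmony, nor did Podn and Smoc2 with 10 CPM added. Smoc2 also no longer passed in tenocyte-like cells when centred on all genes, or with the cells with the highest 1% of 10 members left out. As means over cells, Ecm1, Sparcl1 and Smoc2 no longer passed there, while Fbn1, Nid2 and Efemp1 did. The members' median log2 ratio in FAP-like cells (0.09) was 0.14 as a mean over cells, 0.15 when centred on all genes and 0.13 with the same mix of subsets in both libraries. Of 13 alternatives, 10 recompute the log2 ratios in FAP-like cells, which kept their direction in all 10, and 2 of these (named subsets only, and the cells with the highest 1% of 10 members left out) were chosen after seeing the data. Eln ranged from 0.71 to 1.09, Aspn from 0.75 to 0.86, Mfap4 from 0.59 to 0.80, Postn from 0.60 to 0.81, Thbs1 from 0.59 to 0.67, Fn1 from 0.49 to 0.58 and Spon2 from -0.67 to -0.54. The lowest Eln value is the mean over cells, in which shallow cells weigh as much as deep ones. Depth limits Acan and Smoc1, which stayed under 20 CPM in every type, and neutrophil-like, muscle-like and NK-like cells.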
